A study of Homo sapiens with 12 samples.

Results

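The genes described here are 10 immediate early genes: the FOS family (FOS, FOSB, FOSL1 and FOSL2), the JUN family (JUN, JUNB and JUND), EGR1, IER2 and IER3. They were taken by name from a table of 57353 gene names. All 10 were among the 12998 genes that passed a filter on low counts. They were measured by RNA-seq in MOLM-13, an established cell line from an acute myeloid leukemia (AML) that carries FLT3-ITD, an activating mutation of the receptor kinase FLT3, and that the labels call wild type. The cells were kept for 15 hr in RPMI with vehicle (DMSO), in RPMI with 3 nM quizartinib (AC220, an inhibitor of FLT3), in hBMSC-CM with vehicle, or in hBMSC-CM with 3 nM quizartinib. There were 3 libraries in each of the 4 groups. RPMI is the regular medium with serum, and hBMSC-CM is that medium mixed in equal parts with medium conditioned by HS-5, a human bone marrow stromal cell line. The results stand for a single leukemia line, a single source of conditioned medium, and 1 dose at 1 time.

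Immediate early genes are transcribed within minutes of a growth factor, cytokine or stress signal, without the need for new protein. The FOS and JUN families encode leucine zipper proteins that pair to form the transcription factor AP-1. JUN proteins can pair among themselves, while FOS proteins need a JUN partner. EGR1 encodes a zinc finger transcription factor whose promoter is a standard target of ERK signaling through serum response factor (SRF) and its ETS partners. IER2 encodes a small nuclear protein, and IER3 encodes a stress-responsive protein tied to cell survival. FLT3-ITD signals through the RAS and ERK, PI3K and STAT5 pathways. A library made at 15 hr shows the level that is kept up at that time and not the burst that follows a signal.

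Promoters of 8 of the 10 genes were matched by symbol in the RefSeq table (GRCh38.p14). FOSL1 and IER3 are named only. The windows of EGR1, FOS, FOSL2, JUND and IER2 are shown because these genes had unlike responses to quizartinib. Each line runs 5′ to 3′ on the strand of the gene and ends at the base before the transcript start in RefSeq. For FOSL2 that start lies downstream of the gene start in the GENCODE annotation (28392448), which is used below. By GENCODE its whole window lies within the gene. Motif places are counted from the RefSeq start. Capitals mark matches on either strand to a CArG box (the SRF motif), the cyclic AMP response element TGACGTCA or its core TGACG, an AP-1 site (TGAGTCA or TGACTCA), an EGR site (GCGTGGGCG or GCGGGGGCG), a STAT site (TTCNNNGAA) or an NF-kB site.
EGR1 (chr5:138465229-138465478, plus strand): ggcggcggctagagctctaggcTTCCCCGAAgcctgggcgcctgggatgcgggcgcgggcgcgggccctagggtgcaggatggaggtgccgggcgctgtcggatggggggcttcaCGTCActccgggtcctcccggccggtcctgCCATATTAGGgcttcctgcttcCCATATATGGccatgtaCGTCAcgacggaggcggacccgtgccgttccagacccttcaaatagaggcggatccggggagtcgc
FOS (chr14:75278678-75278827, plus strand): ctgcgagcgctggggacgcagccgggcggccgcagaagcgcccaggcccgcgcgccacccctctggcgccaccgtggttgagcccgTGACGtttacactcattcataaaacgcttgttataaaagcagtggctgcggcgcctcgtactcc
FOSL2 (chr2:28392708-28392857, plus strand): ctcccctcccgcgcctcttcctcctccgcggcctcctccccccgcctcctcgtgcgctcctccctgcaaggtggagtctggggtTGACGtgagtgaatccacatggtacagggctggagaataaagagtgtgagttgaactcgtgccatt
JUND (chr19:18281623-18281872, minus strand): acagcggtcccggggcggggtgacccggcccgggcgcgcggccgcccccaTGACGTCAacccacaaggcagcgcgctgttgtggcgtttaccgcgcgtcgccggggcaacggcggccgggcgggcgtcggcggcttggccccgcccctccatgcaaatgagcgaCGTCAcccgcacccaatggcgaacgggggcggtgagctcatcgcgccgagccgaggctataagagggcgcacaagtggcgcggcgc
IER2 (chr19:13150261-13150410, plus strand): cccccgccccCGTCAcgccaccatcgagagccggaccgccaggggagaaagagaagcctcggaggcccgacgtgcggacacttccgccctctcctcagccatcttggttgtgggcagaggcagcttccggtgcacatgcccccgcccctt

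Over windows from 250 bases before to 50 bases after the start, the TGACG core was found in 8 of 8 genes and in 24.6% of 35116 promoters. Within these windows, EGR1 was the only gene of the 8 with a CArG box. It had 2, at bases −105 to −96 and −83 to −74, where 1.29% of all promoters held any. EGR1 was also the only gene of the 8 with a STAT match, at bases −228 to −220 (7.66% of all promoters). JUND alone held the whole element TGACGTCA, which includes the core on both strands, at bases −200 to −193 (1.85% of all promoters). An AP-1 match was present in FOSL2 only, at bases 5 to 11 after the start, outside the printed window (4.95% of all promoters). No window of the 8 held an EGR site (5.77% of all promoters) or an NF-kB match (11.3%). The SP1 motif GGGCGG, not capitalized above, was in 6 of 8 windows and in 45.0% of all promoters, and the ETS core GGAA was in 7 of 8 and in 95.5%. Bases outside the windows were not searched, so a window without a match does not show that the gene lacks the site. A match of letters describes the window and does not show that a factor was bound.

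**Figure D1:**
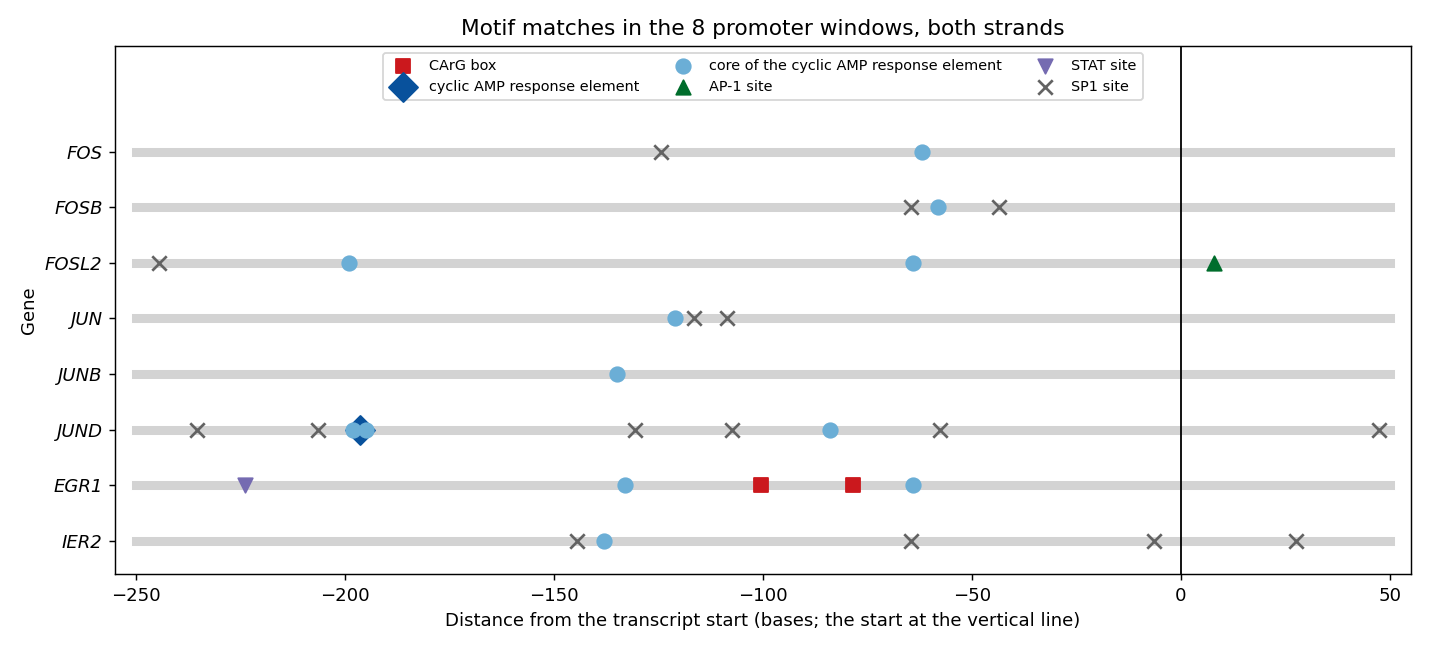
Motif matches in the promoter windows of 8 genes, by distance from the transcript start in bases (x axis), 1 gene a row; each symbol is a match of 1 motif on either strand. Both CArG boxes found in these windows lie in EGR1, and the TGACG core lies in all 8 rows.

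Levels are given as CPM, the count of a gene per 1000000 counts of its library, scaled by TMM, a method that sets library sizes against each other. A change is the log2 fold change of a quasi-likelihood fit in edgeR with its standard error (SE), given in parentheses, and folds and percentages of a level left are the same fitted values on the linear scale. The SE was derived as the size of the change over the square root of the F statistic of its test. A change was called where the Benjamini-Hochberg adjusted p over all 12998 genes was under 0.05. Total counts ran from 19966546 to 31546104 a library, so that 3 counts, the limit that a count of 0 allows, stood for 0.0951 to 0.150 CPM. Of 12 markers of monocytic AML cells, CD68 had at most 4 counts, and all 12 had a count in some library. Their summed level was 1154 to 1192 CPM with vehicle and 1900.0 to 1933 CPM with quizartinib in RPMI, and 1289 to 1306 and 2082 to 2211 CPM in hBMSC-CM. Of 17 markers of stromal cells, 8 had no count in any library (COL3A1, COL5A1, COL6A2, LUM, DCN, POSTN, THY1 and IL6). Only 3 of the 17 passed the filter on low counts. The sum of the 17 was 7.66 to 8.53, 16.7 to 20.6, 5.55 to 7.19 and 10.2 to 11.3 CPM in the order of groups of the AML sum. Mitochondrially encoded genes held 0.683% to 0.790%, 1.02% to 1.10%, 0.458% to 0.614% and 0.683% to 0.947% of the counts. These sums and shares moved with the drug, and their part in the results was not tested. Between libraries of 1 group, the chi-square per gene ran from 2.47 to 9.40. In the hBMSC-CM groups, quizartinib replicate 1 (8.54 and 8.27 against the other 2, which were at 2.91 from each other) and vehicle replicate 3 (9.40 and 6.33, against 3.46) stood apart. Counts of called genes are given below with and without these libraries. In bulk libraries, fewer cells that express a gene and less RNA of it per cell cannot be told apart.

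The comparison of quizartinib with vehicle in RPMI asks what inhibition of FLT3 does to these genes without stromal factors. FOSL1, EGR1 and IER3 fell steeply and JUND slightly, FOSL2 and JUN rose, and FOS, FOSB, JUNB and IER2 were not called. In all, 6 of the 10 genes were called, 2 higher and 4 lower. Of all genes tested, 79.3% were called, 40.1% higher and 39.2% lower, so being called was common. The median change of the 10 was -0.15 against 0.025 over all genes. With upper-quartile factors the median over all genes was 0.13, and with library size only it was 0.11.

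**Figure D2:**
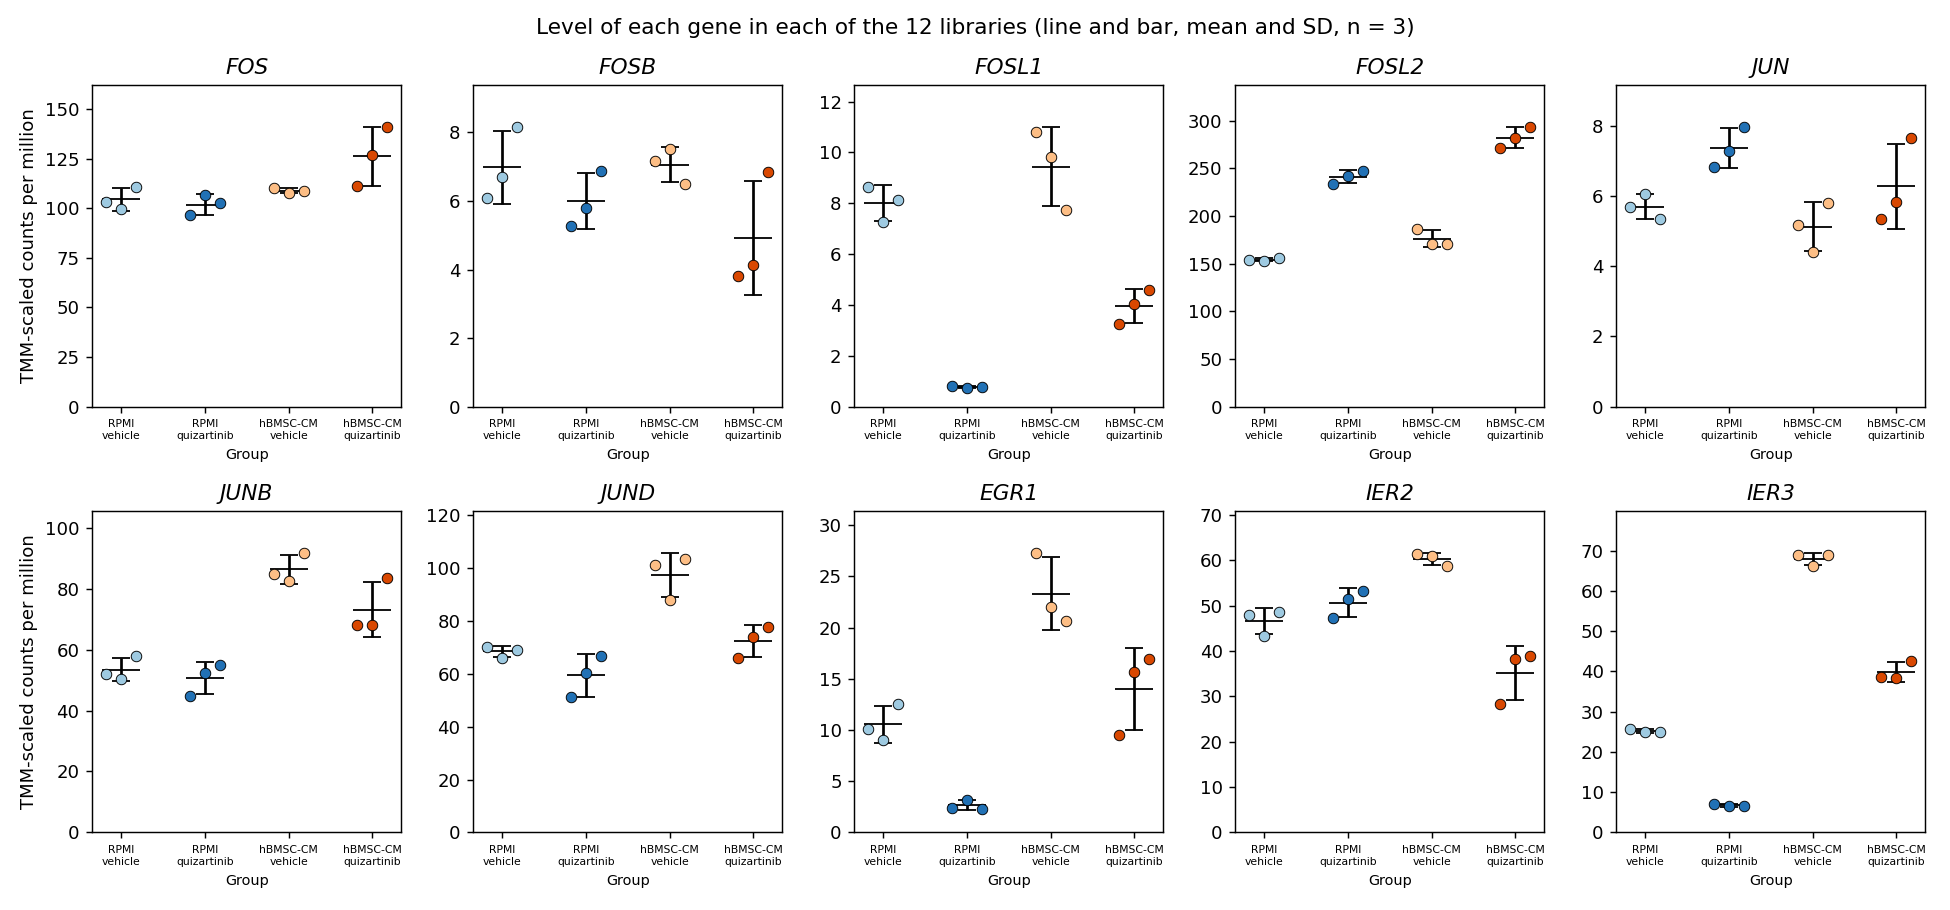
TMM-scaled CPM (y axis, from 0, with its own range for each gene) of the 10 genes in the 4 groups; each point is a library, and the line and bar are the mean and SD of 3 libraries. FOSL1, EGR1 and IER3 are lowest with quizartinib in RPMI, FOSL2 is higher in both groups with quizartinib, and IER2 is lowest with quizartinib in hBMSC-CM.

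FOSL1, also called FRA-1, is a FOS family gene known as a readout of ERK activity (ENSG00000175592, chromosome 11, 65892049 to 65900573, minus strand, GRCh38). In RPMI it had 8.65, 7.28 and 8.12 CPM with vehicle and 0.815, 0.730 and 0.781 CPM with quizartinib. The groups lay far apart, and quizartinib left 9.69% of the vehicle level (log2 fold change -3.37, SE 0.19, adjusted p = 5.66e-13). In hBMSC-CM it had 10.8, 9.81 and 7.74 CPM with vehicle and 3.26, 4.04 and 4.59 CPM with quizartinib. The groups again did not overlap, and 41.1% of the level was left (-1.28, SE 0.14, adjusted p = 4.69e-08). With quizartinib, FOSL1 was 5.04-fold as high in hBMSC-CM as in RPMI (2.33, SE 0.22, adjusted p = 5e-09), without overlap. With vehicle the media overlapped and the difference was not called (0.25, SE 0.12, adjusted p = 0.121), although it was called without hBMSC-CM vehicle replicate 3 (0.36, adjusted p = 0.0204). The effects of quizartinib in the media differed by 2.09 on the log2 scale (SE 0.25, adjusted p = 8.1e-07 by edgeR).

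EGR1 (ENSG00000120738, chromosome 5, 138465479 to 138469303, plus strand, 2 exons) is the gene with both CArG boxes printed above. In RPMI it had 10.1, 9.04 and 12.5 CPM with vehicle and 2.41, 3.20 and 2.30 CPM with quizartinib. Every treated library lay below every vehicle library, and 25.6% of the level was left (-1.97, SE 0.22, adjusted p = 4.43e-08). In hBMSC-CM it had 27.3, 22.0 and 20.6 CPM with vehicle and 9.46, 15.6 and 16.9 CPM with quizartinib. The groups did not overlap, and 58.8% was left (-0.77, SE 0.15, adjusted p = 0.000166). With vehicle, EGR1 in hBMSC-CM was 2.24-fold that in RPMI (1.17, SE 0.16, adjusted p = 9.62e-06). With quizartinib the ratio was 5.16-fold (2.37, SE 0.21, adjusted p = 2.8e-09). The difference between the drug effects was 1.20, SE 0.27, adjusted p = 0.00117.

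From low to high, the mean of EGR1 ran from quizartinib in RPMI through vehicle in RPMI and quizartinib in hBMSC-CM to vehicle in hBMSC-CM. The middle pair overlapped. The change between them was 0.40, SE 0.17, adjusted p = 0.0439. It was not called by the DESeq2 Wald test (0.40, adjusted p = 0.153), limma-voom (0.35, adjusted p = 0.0869) or limma-trend (0.38, adjusted p = 0.0703). Leaving out any of 5 libraries also ended the call, with hBMSC-CM quizartinib replicate 3 giving the smallest change (0.24, adjusted p = 0.251). The other 4 were RPMI vehicle replicates 1 (adjusted p = 0.115) and 2 (0.167), RPMI quizartinib replicate 1 (0.0513) and hBMSC-CM quizartinib replicate 2 (0.164).

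IER3 (ENSG00000137331, chromosome 6, 30743199 to 30744548, minus strand) followed the same order of means with less spread. In RPMI it had 25.7, 24.8 and 24.9 CPM with vehicle and 7.18, 6.67 and 6.45 CPM with quizartinib. In hBMSC-CM it had 68.8, 66.1 and 68.8 CPM with vehicle and 38.7, 38.3 and 42.7 CPM with quizartinib. No 2 of the 4 groups overlapped. Quizartinib left 27.0% of IER3 in RPMI (-1.89, SE 0.071, adjusted p = 6.04e-16) and 58.6% in hBMSC-CM (-0.77, SE 0.053, adjusted p = 6.46e-11). The level in hBMSC-CM was 2.70-fold that in RPMI with vehicle (1.43, SE 0.055, adjusted p = 8.04e-14) and 5.87-fold with quizartinib (2.55, SE 0.068, adjusted p = 1.24e-17). The drug effects in the media differed by 1.12 (SE 0.090, adjusted p = 1.71e-09 by edgeR). Cells with quizartinib in hBMSC-CM held 1.58-fold the IER3 of vehicle cells in RPMI (0.66, SE 0.057, adjusted p = 2.23e-09). The overlapping genes IER3-AS1 and HCG20, on the other strand, had at most 0.250 and 0.280 CPM.

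FOSL2 (FRA-2, ENSG00000075426, chromosome 2, 28392448 to 28417317, plus strand) went the other way. It had 154, 153 and 156 CPM with vehicle and 234, 242 and 248 CPM with quizartinib in RPMI. The hBMSC-CM libraries had 187, 171 and 171 CPM with vehicle and 272, 282 and 294 CPM with quizartinib. The 4 groups did not overlap, and the order was vehicle in RPMI, vehicle in hBMSC-CM, quizartinib in RPMI and quizartinib in hBMSC-CM. Quizartinib raised FOSL2 1.57-fold in RPMI (0.65, SE 0.044, adjusted p = 1.88e-11) and 1.60-fold in hBMSC-CM (0.68, SE 0.044, adjusted p = 3.05e-11). The difference between these effects was not called (0.031, SE 0.063, adjusted p = 0.723). FOSL2 was higher in hBMSC-CM with vehicle (0.20, SE 0.045, adjusted p = 0.00208) and with quizartinib (0.23, SE 0.044, adjusted p = 0.000113).

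FOS (ENSG00000170345, chromosome 14, 75278826 to 75282230, plus strand), the founding member of the family, had 103, 99.8 and 111 CPM with vehicle and 96.3, 107 and 103 CPM with quizartinib in RPMI. These groups overlapped (-0.037, SE 0.064, adjusted p = 0.602). The sign of this small value turned with library size only (0.052), with upper-quartile factors (0.065), with a filter at a mean of 5 CPM (0.012), and without RPMI vehicle replicate 3 (0.0053) or RPMI quizartinib replicate 1 (0.0076). With no filter on low counts FOS was called lower (-0.14, adjusted p = 0.0194). The hBMSC-CM libraries had 110.1, 108 and 109 CPM with vehicle and 111, 127 and 141 CPM with quizartinib. The lowest treated library was just above the highest vehicle library. The rise (0.21, SE 0.063, adjusted p = 0.00594) was not called without hBMSC-CM quizartinib replicate 3 (0.12, adjusted p = 0.0751).

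Between the media, FOS overlapped with vehicle (0.057, SE 0.064, adjusted p = 0.529) and was higher in hBMSC-CM with quizartinib (0.31, SE 0.064, adjusted p = 0.000232). The drug effects in the media differed by 0.25 (SE 0.090, adjusted p = 0.029 by edgeR). This was not called without RPMI vehicle replicate 3 (0.21, adjusted p = 0.0859), RPMI quizartinib replicate 1 (0.21, adjusted p = 0.0845) or hBMSC-CM quizartinib replicate 3 (0.15, adjusted p = 0.133).

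FOSB (ENSG00000125740, chromosome 19, 45467995 to 45475179, plus strand) is, like FOS, a member with a strong activating domain. It had 6.09, 6.69 and 8.16 CPM with vehicle and 5.28, 5.81 and 6.89 CPM with quizartinib in RPMI. These groups overlapped (-0.22, SE 0.16, adjusted p = 0.216), and FOSB was called lower with no filter on low counts (-0.32, adjusted p = 0.0125). In hBMSC-CM, FOSB had 7.16, 7.51 and 6.50 CPM with vehicle and 3.82, 4.13 and 6.84 CPM with quizartinib. FOSB fell there (-0.54, SE 0.17, adjusted p = 0.00766), although the groups overlapped through hBMSC-CM quizartinib replicate 3. The call was lost without replicate 1 of that group (-0.37, adjusted p = 0.0653). With quizartinib the media overlapped (-0.29, SE 0.17, adjusted p = 0.132), and without hBMSC-CM quizartinib replicate 3 the difference was called (-0.59, adjusted p = 0.00208). ERCC1, on the opposite strand, overlaps FOSB and had 98.1 to 132 CPM. The use of strand in counting is not given in the sources used here, so the values of FOSB are uncertain.

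JUN, JUNB and JUND encode the partners of the FOS proteins. JUN (ENSG00000177606, chromosome 1, 58776845 to 58784048, minus strand), the strongest activator among them, had 5.68, 6.06 and 5.35 CPM with vehicle and 6.83, 7.27 and 7.96 CPM with quizartinib in RPMI. The treated libraries all lay above the vehicle libraries. JUN rose (0.36, SE 0.13, adjusted p = 0.0131), but was not called with no filter on low counts (0.26, adjusted p = 0.0578). In hBMSC-CM it had 5.18, 4.41 and 5.79 CPM with vehicle and 5.33, 5.84 and 7.64 CPM with quizartinib. These groups overlapped and the change was not called (0.27, SE 0.13, adjusted p = 0.0789). It was called with library size only (0.38, adjusted p = 0.0199), with upper-quartile factors (0.35, adjusted p = 0.0249), with a filter at a mean of 5 CPM (0.31, adjusted p = 0.0443), and without hBMSC-CM quizartinib replicate 1 (0.39, adjusted p = 0.0206) or hBMSC-CM vehicle replicate 3 (0.36, adjusted p = 0.0373). Between the media JUN was not called with vehicle (-0.15, SE 0.13, adjusted p = 0.416) or with quizartinib (-0.24, SE 0.13, adjusted p = 0.0953), the latter called without hBMSC-CM quizartinib replicate 3 (-0.40, adjusted p = 0.00761).

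JUNB (ENSG00000171223, chromosome 19, 12791486 to 12793315, plus strand), a gene of 1 exon, differed by medium in both drug states. In RPMI it had 52.1, 50.5 and 57.9 CPM with vehicle and 44.7, 52.2 and 54.8 CPM with quizartinib. The groups overlapped (-0.080, SE 0.080, adjusted p = 0.36). This sign turned with library size only (0.0080), upper-quartile factors (0.021) and without RPMI quizartinib replicate 1 (0.0065), and with no filter JUNB was called lower (-0.18, adjusted p = 0.00462). The hBMSC-CM libraries had 84.7, 82.5 and 91.8 CPM with vehicle and 67.9, 68.1 and 83.4 CPM with quizartinib. JUNB fell there (-0.24, SE 0.076, adjusted p = 0.00861), with an overlap of the groups. The call was lost with library size only (-0.14, adjusted p = 0.127), with upper-quartile factors (-0.16, adjusted p = 0.072) and without hBMSC-CM quizartinib replicate 2 (-0.19, adjusted p = 0.0531). JUNB was 1.62-fold as high in hBMSC-CM with vehicle (0.69, SE 0.078, adjusted p = 8.56e-07) and 1.45-fold as high with quizartinib (0.53, SE 0.079, adjusted p = 4.36e-06), both without overlap. HOOK2, on the opposite strand, overlaps JUNB and had 9.64 to 20.2 CPM.

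JUND (ENSG00000130522, chromosome 19, 18279694 to 18281622, minus strand), the JUN family gene known for steady expression in resting cells, had 70.3, 66.1 and 68.9 CPM with vehicle and 51.0, 60.1 and 66.9 CPM with quizartinib in RPMI. The groups overlapped, and JUND was called lower (-0.21, SE 0.078, adjusted p = 0.019). This call was lost with library size only (-0.12, adjusted p = 0.168), with upper-quartile factors (-0.11, adjusted p = 0.21), with a filter at a mean of 5 CPM (-0.16, adjusted p = 0.0789), and without RPMI quizartinib replicate 1 (-0.11, adjusted p = 0.19) or RPMI vehicle replicate 1 (-0.19, adjusted p = 0.0606). In hBMSC-CM, JUND had 101, 87.9 and 103 CPM with vehicle and 65.8, 74.0 and 77.6 CPM with quizartinib. The groups were apart, and JUND fell (-0.43, SE 0.077, adjusted p = 4.59e-05). JUND was 1.43-fold as high in hBMSC-CM with vehicle (0.51, SE 0.077, adjusted p = 3.3e-05). With quizartinib the media overlapped, and the difference was called (0.29, SE 0.078, adjusted p = 0.00263).

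IER2 (ENSG00000160888, chromosome 19, 13150411 to 13154911, plus strand) was the gene of the 10 whose drug-treated level was called lower in hBMSC-CM. In RPMI it had 48.0, 43.3 and 48.6 CPM with vehicle and 47.2, 51.6 and 53.3 CPM with quizartinib. These groups overlapped (0.12, SE 0.083, adjusted p = 0.196), and IER2 was called higher with library size only (0.21, adjusted p = 0.0335) or upper-quartile factors (0.22, adjusted p = 0.0205). In hBMSC-CM, IER2 had 61.4, 60.9 and 58.8 CPM with vehicle and 28.2, 38.3 and 39.0 CPM with quizartinib. The gap was wide, and quizartinib left 57.9% (-0.79, SE 0.085, adjusted p = 6.7e-08). With vehicle, hBMSC-CM had more IER2 (0.37, SE 0.083, adjusted p = 0.00162). With quizartinib it was lower (-0.53, SE 0.086, adjusted p = 1.24e-05), without overlap. The drug effects in the media differed (-0.91, SE 0.12, adjusted p = 2.54e-06), with a sign opposite to that of FOSL1, EGR1, IER3 and FOS. Replicate 1 of hBMSC-CM with quizartinib, which stood apart, was the lowest of its group for 9 of the 10 genes (not IER3), and replicate 3 was the highest for all 10. Without replicate 1, the falls of IER2 (-0.64, adjusted p = 2.29e-08), EGR1 (-0.53, adjusted p = 0.000757) and FOSL1 (-1.15, adjusted p = 6.4e-07) in hBMSC-CM were still called. In RPMI, vehicle replicate 2 was the lowest of its group for 8 of the 10 genes, and quizartinib replicate 1 for 7.

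**Figure D3:**
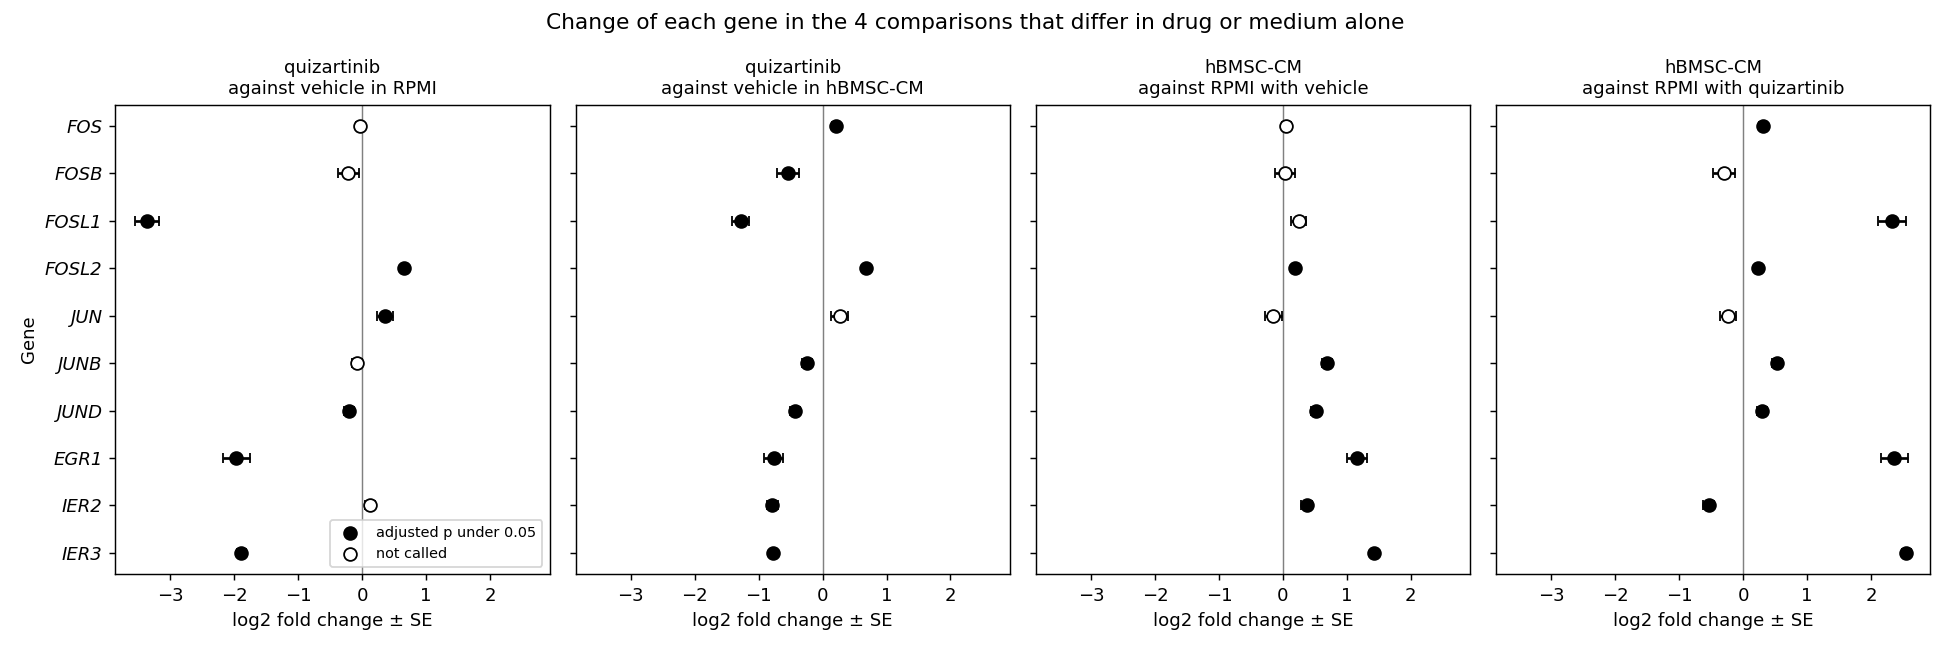
Log2 fold change (x axis) of each gene (rows) in 4 comparisons (panels); bars are the SE derived from the edgeR test, filled points were called at an adjusted p under 0.05 and open points were not. FOSL1, EGR1 and IER3 lie farthest from 0 with quizartinib in RPMI and, with the opposite sign, between the media with quizartinib; these comparisons share the RPMI libraries with quizartinib.

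The comparison of quizartinib with vehicle in hBMSC-CM asks what the drug does where stromal factors are present. FOS and FOSL2 rose, JUN was not called, and the other 7 fell. Thus 9 of 10 were called, where 67.1% of all genes were, 33.4% higher and 33.7% lower. Of the calls over all genes, 49.8% were higher and 50.2% lower. With library size only these shares were 62.8% and 37.2%, and with upper-quartile factors 60.0% and 40.0%. Without hBMSC-CM quizartinib replicate 1, 9 of the 10 genes were called, and without hBMSC-CM vehicle replicate 3 all 10. The median change of the 10 was -0.49 against 0.0094 over all genes. The falls of FOSL1, IER2, IER3, EGR1 and JUND were called under each scaling, test, filter and left-out library tried.

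The comparison of hBMSC-CM with RPMI in vehicle asks what the stromal medium does to untreated leukemia cells. IER3, EGR1, JUNB, JUND, IER2 and FOSL2 rose, 6 of 10, and FOS, FOSB, FOSL1 and JUN were not called. Of all genes, 32.1% were called, 16.6% higher and 15.5% lower. Without hBMSC-CM vehicle replicate 3, 7 of the 10 were called, FOSL1 now among them. The median change of the 10 was 0.31 against -0.0025 over all genes. With quizartinib, 8 of 10 were called, 7 higher and IER2 lower, where 69.8% of all genes were called, 35.5% higher and 34.3% lower. Without hBMSC-CM quizartinib replicate 1, 8 of 10 were called too. The median of the 10 was 0.30 against 0.0020 over all genes.

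The effect of quizartinib differed between the media for 5 of the 10 genes, by the interaction term of the same fit, where 45.2% of all genes were called. FOSL1, EGR1, IER3 and FOS had a more positive effect in hBMSC-CM, and IER2 a more negative effect. FOSL2, JUN, JUNB, JUND and FOSB were not called. Without either library that stood apart, 5 of 10 were called again. Of the uncalled genes, FOSB (-0.63, adjusted p = 0.0138) and JUNB (-0.27, adjusted p = 0.0312) were called without hBMSC-CM quizartinib replicate 3. JUND was called without RPMI quizartinib replicate 1 (-0.32, adjusted p = 0.0115) or hBMSC-CM vehicle replicate 2 (-0.28, adjusted p = 0.0424).

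**Figure D4:**
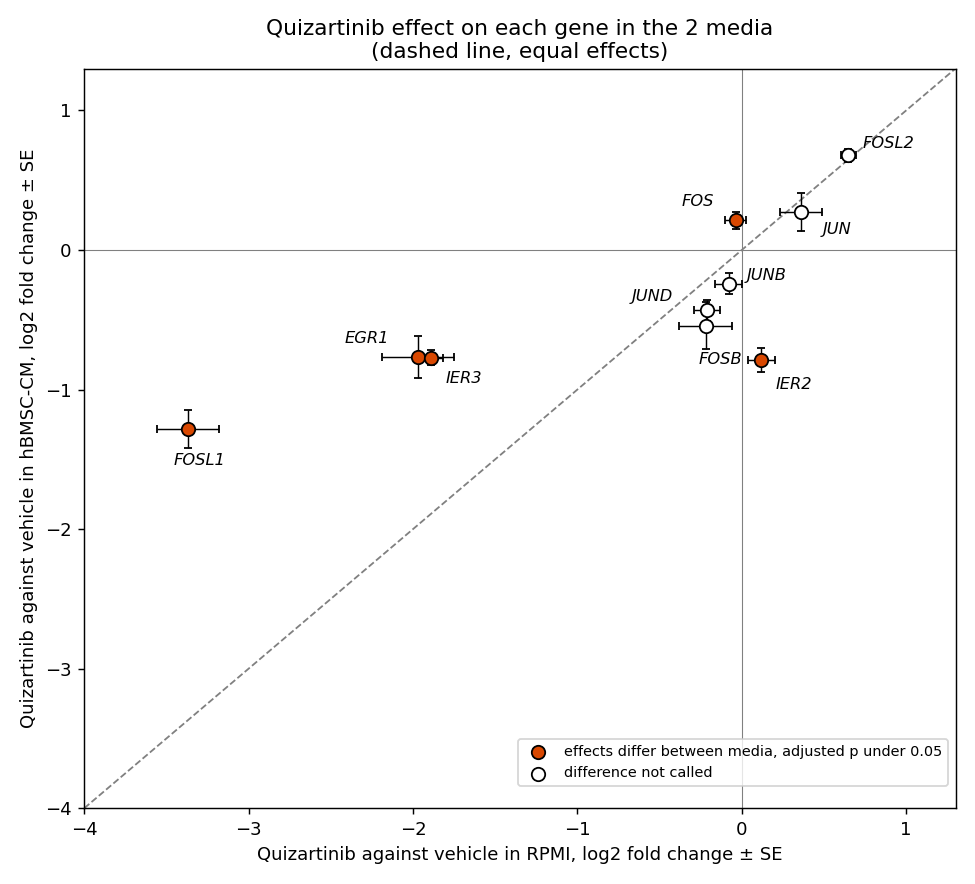
Log2 fold change of quizartinib against vehicle in RPMI (x axis) and in hBMSC-CM (y axis) for each gene, with the SE of each; filled points have effects that differ between the media at an adjusted p under 0.05, and the dashed line marks equal effects. FOSL1, EGR1 and IER3 lie above the line in the lower left, IER2 lies below it, and FOSL2 lies next to it.

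Cells with quizartinib in hBMSC-CM were also set against vehicle cells in RPMI. Here 8 of 10 were called, 5 higher (FOSL2, IER3, JUNB, EGR1 and FOS) and 3 lower (FOSL1, FOSB and IER2). Of all genes 62.1% were called, 30.6% higher and 31.6% lower. The call of EGR1 (adjusted p = 0.0439) was lost in the fits and with the left-out libraries given above for this gene. Without hBMSC-CM quizartinib replicate 1, 7 of 10 were called, and without hBMSC-CM vehicle replicate 3, 8. With library size only, 62.1% of the calls over all genes were higher, against 49.2% with TMM. FOSL1 was at 48.8% of the RPMI vehicle level (-1.04, SE 0.14, adjusted p = 1.45e-06), and IER2 at 75.0% (-0.42, SE 0.086, adjusted p = 0.000289). FOSB (-0.51, SE 0.17, adjusted p = 0.0115) was not called without RPMI vehicle replicate 3 (adjusted p = 0.0642), hBMSC-CM quizartinib replicate 1 (0.0933) or hBMSC-CM quizartinib replicate 2 (0.06).

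Levels of different genes can be compared only per length, so CPM was divided by the kilobases of exon of each gene in GENCODE. With vehicle in RPMI, JUND stood highest at 35.5 ± 1.11 CPM per kilobase (SD, n = 3), followed by FOS at 32.8 ± 1.81 and JUNB at 29.2 ± 2.13. Each of these overlapped its neighbor in the order. FOSL2 stood at 21.5 ± 0.219, IER3 at 18.6 ± 0.339 and IER2 at 15.2 ± 0.957 CPM per kilobase, apart from each other. FOSL1 (4.25 ± 0.367) and EGR1 (3.36 ± 0.565) overlapped, and JUN (1.57 ± 0.0988) and FOSB (1.26 ± 0.192) were lowest. With quizartinib in RPMI, FOSL2 had the highest mean at 33.7 ± 0.941 CPM per kilobase, and FOSL1 was lowest at 0.411 ± 0.0226. FOSL2 overlapped FOS (31.96 ± 1.62) and JUND (30.75 ± 4.12) in this group. With the length of the longest transcript in place of all exons, FOS led in every group. Of related genes, EGR3 and EGR4 had at most 3 and 5 counts in a library, and EGR2, NR4A1 and NR4A3 at most 27, 30 and 26, and none of these was tested.

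Within the FOS family, FOSL2 made up 36.0 ± 1.04% of the summed level per kilobase with vehicle in RPMI and 50.2 ± 0.841% with quizartinib (SD, n = 3). FOSL1 made up 7.10 ± 0.534% and 0.613 ± 0.0546%. In hBMSC-CM the share of FOSL2 was 37.9 ± 0.692% with vehicle and 48.2 ± 2.15% with quizartinib. That of FOSL1 was 7.68 ± 1.05% and 2.55 ± 0.228%. FOSL2 thus took a larger share with the drug and FOSL1 a smaller share in each medium. With the length of the longest transcript, the share of FOSL2 went from 29.0 ± 0.936% to 41.6 ± 0.825% in RPMI. In hBMSC-CM it went from 30.8 ± 0.664% to 39.9 ± 2.05%. The share of FOSL1 then went from 5.9% to 0.53% in RPMI and from 6.5% to 2.2% in hBMSC-CM. With that length, FOS made up 56.0 ± 0.935% with quizartinib in RPMI, so the directions held but the sizes of the shares did not. Within the JUN family, JUNB and JUND held nearly all of the sum, and the mean share of JUN lay between 1.42% and 3.37%. The ratio of the JUN family sum to the FOS family sum was 1.11 ± 0.00784 with vehicle and 0.898 ± 0.0779 with quizartinib in RPMI. In hBMSC-CM it was 1.53 ± 0.123 and 0.966 ± 0.0239. The libraries with quizartinib lay below those with vehicle in each medium. With the length of the longest transcript these 4 ratios were 0.839 ± 0.00769, 0.701 ± 0.0604, 1.16 ± 0.0905 and 0.752 ± 0.0172, so that their order held but not which family was higher with vehicle in RPMI. These are levels of RNA, and AP-1 protein was not measured here.

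**Figure D5:**
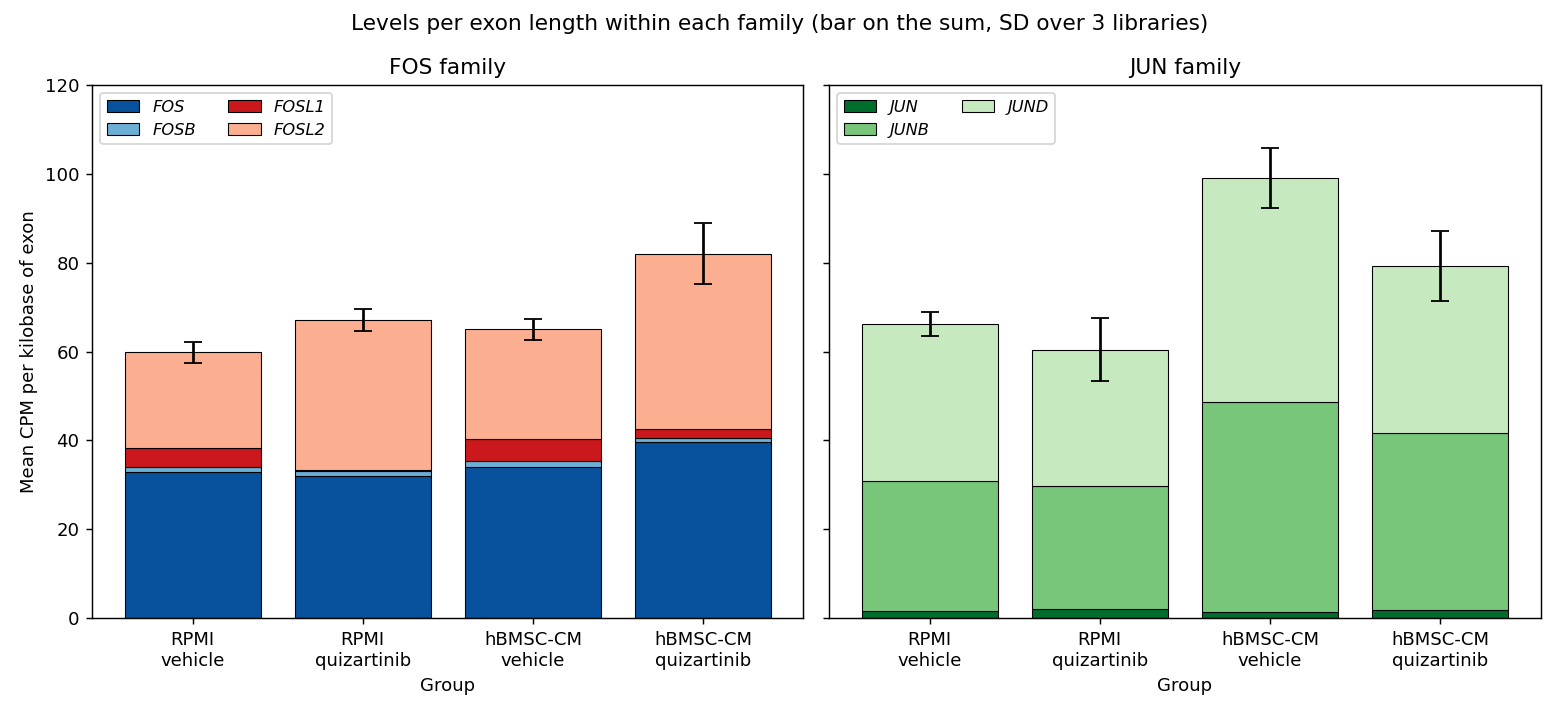
Mean CPM per kilobase of exon (y axis, from 0) of the FOS family (left) and the JUN family (right) in the 4 groups; the stacked parts are the genes, and the bar on each stack is the SD of the family sum over 3 libraries. FOSL1 is a thin part of the stack with quizartinib in RPMI, and the JUN family stack is highest with vehicle in hBMSC-CM.

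Other genes of the pathway were taken from lists made with earlier results of these data known, so their counts are a description, to be read beside the 40.1% and 39.2% of all genes that rose and fell with quizartinib in RPMI (79.3% in all). Between the media with quizartinib, 35.5% and 34.3% of all genes were higher and lower in hBMSC-CM (69.8% in all). Of 52 other immediate early genes, 39 were tested, of which 12 rose and 14 fell with quizartinib in RPMI. BTG2, an antiproliferative gene, rose from 25.1 ± 0.496 to 113 ± 4.15 CPM (SD, n = 3) (2.17, SE 0.049, adjusted p = 1.73e-19). TNFAIP3, an inhibitor of NF-kB signaling, fell from 103 ± 2.36 to 9.52 ± 0.386 CPM (-3.44, SE 0.056, adjusted p = 3.09e-21). MYC, a transcription factor gene of growth, fell from 429 ± 14.7 to 50.5 ± 2.85 CPM (-3.09, SE 0.050, adjusted p = 3.09e-21). Tissue factor (F3) fell from 19.1 ± 0.326 to 3.07 ± 0.469 CPM (-2.65, SE 0.10, adjusted p = 8.83e-16). Between the media with quizartinib, 17 of the 39 were higher and 13 lower in hBMSC-CM. SOCS3, a feedback inhibitor of cytokine receptors, was at 30.5 ± 2.17 CPM in hBMSC-CM against 2.50 ± 0.543 in RPMI (3.60, SE 0.13, adjusted p = 5.65e-16). HBEGF, a ligand of the EGF receptor, was at 120.1 ± 1.03 against 10.4 ± 1.21 CPM (3.52, SE 0.061, adjusted p = 2.44e-20). MYC was at 595 ± 18.5 CPM in hBMSC-CM (3.56, SE 0.051, adjusted p = 1.56e-21). BTG2 was lower in hBMSC-CM (-1.71, SE 0.047, adjusted p = 1.87e-17). With vehicle, 11 of the 39 were higher and 8 lower in hBMSC-CM, against 16.6% and 15.5% of all genes. Already with vehicle, SOCS3 (2.10, SE 0.13, adjusted p = 1.5e-10), HBEGF (1.63, SE 0.051, adjusted p = 3.53e-15) and MYC (0.87, SE 0.045, adjusted p = 7.4e-12) were higher there. BTG2 was lower (-0.55, SE 0.056, adjusted p = 2.28e-07). In RPMI, the change of SOCS3 with the drug was not called (-0.33, SE 0.18, adjusted p = 0.0858). The comparison of media with quizartinib and the drug comparison in RPMI share the RPMI libraries with quizartinib, here and for the lists that follow.

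Of 20 listed partners of AP-1 proteins, 15 were tested, and 6 rose and 6 fell with quizartinib in RPMI. BATF3, a leucine zipper gene whose protein pairs with JUN proteins, fell from 11.5 ± 0.0591 to 0.696 ± 0.237 CPM (-4.02, SE 0.15, adjusted p = 8.73e-16). With quizartinib it was at 4.76 ± 0.476 CPM in hBMSC-CM (2.74, SE 0.18, adjusted p = 2.17e-11 against RPMI). NFE2, a hematopoietic leucine zipper factor, rose in RPMI (1.43, SE 0.094, adjusted p = 8.84e-12) and was higher again in hBMSC-CM with the drug (2.33, SE 0.067, adjusted p = 3.6e-17). NFE2 was also higher in hBMSC-CM with vehicle (1.95, SE 0.089, adjusted p = 1.42e-12). ATF7, of the family of ATF2, rose with quizartinib in RPMI (1.11, SE 0.10, adjusted p = 1.96e-09). Of 18 SRF, ETS and CREB regulators of immediate early promoters, 11 rose and 5 fell with quizartinib in RPMI. ETS2 rose (1.52, SE 0.043, adjusted p = 5.86e-18), and ELK1, an SRF partner that ERK phosphorylates, fell (-0.73, SE 0.059, adjusted p = 2.46e-10). Between the media with quizartinib, 3 of the 18 were higher and 13 lower in hBMSC-CM, with a median of -0.37 against 0.0020 over all genes. MRTFA, an actin-regulated partner of SRF, was among the lower (-0.85, SE 0.056, adjusted p = 2.2e-11). With vehicle, 1 of the 18 was higher and 6 were lower in hBMSC-CM.

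Of 26 kinases and phosphatases of the FOS and JUN proteins, 9 rose and 11 fell with quizartinib in RPMI. DUSP6, an ERK phosphatase that ERK itself induces, fell (-2.14, SE 0.055, adjusted p = 1.45e-18) and with the drug was higher in the conditioned medium (1.72, SE 0.056, adjusted p = 2.02e-16). DUSP2, another phosphatase of the family, fell (-2.03, SE 0.16, adjusted p = 2.27e-10). RPS6KA2, a kinase of the RSK family that ERK activates, had the largest rise of the list (1.79, SE 0.059, adjusted p = 7.38e-17) and was lower in hBMSC-CM with the drug (-1.77, SE 0.059, adjusted p = 2.94e-16). Of 8 co-repressors of EGR1 and ubiquitin ligases of JUN and FOS, 3 rose and 3 fell. The EGR1 co-repressors NAB1 (-0.78, SE 0.067, adjusted p = 8.68e-10) and NAB2 (-0.83, SE 0.095, adjusted p = 7.74e-08) fell, and ITCH, a ligase of JUN proteins, rose (0.45, SE 0.043, adjusted p = 4.41e-09). Many immediate early transcripts carry AU-rich elements that speed their decay. Of 16 factors of that decay, 4 rose and 6 fell. KHSRP, which promotes their decay, fell most (-1.17, SE 0.057, adjusted p = 4.75e-14), followed by ELAVL1, which stabilizes such transcripts (-1.05, SE 0.044, adjusted p = 3.47e-15), and HNRNPD, another protein that binds these elements (-0.90, SE 0.067, adjusted p = 8.47e-11). ZFP36L2, which speeds their decay, rose (0.85, SE 0.079, adjusted p = 2.89e-09). The genes that moved thus held decay-promoting factors in both directions.

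Of 21 listed genes that AP-1 or EGR1 are known to activate, 13 were tested. With quizartinib in RPMI, 3 of them rose and 10 fell, and the median change was -0.82 against 0.025 over all genes. The cytokine gene TNF fell from 347 ± 10.1 to 13.4 ± 0.844 CPM (-4.71, SE 0.066, adjusted p = 6.66e-22). CCND1, the cyclin D1 gene, fell from 7.59 ± 0.445 to 0.680 ± 0.120 CPM (-3.48, SE 0.16, adjusted p = 1.16e-14). PLAUR, the urokinase receptor gene, fell from 179 ± 5.01 to 28.6 ± 1.55 CPM (-2.65, SE 0.052, adjusted p = 2.48e-20). HMOX1, the gene of a heme-degrading enzyme, rose from 3.82 ± 0.217 to 21.4 ± 1.66 CPM (2.48, SE 0.097, adjusted p = 1.3e-15). With quizartinib, 10 of the 13 were higher and 3 lower in hBMSC-CM, CCND1 (2.80, SE 0.17, adjusted p = 5.51e-12) and CXCL8 (2.07, SE 0.14, adjusted p = 4.71e-11) among the higher and HMOX1 (-1.28, SE 0.085, adjusted p = 2.49e-11) among the lower. With vehicle too, 10 of the 13 were higher in hBMSC-CM, and 0 were lower. CXCL8 was among these (1.83, SE 0.12, adjusted p = 4.31e-10), and its drug effects in the media were not called different (0.24, SE 0.20, adjusted p = 0.337). The drug effect was more positive in hBMSC-CM for 7 of the 13 and more negative for 3, where 45.2% of all genes were called.

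Heat shock genes can answer the same stresses as immediate early genes. Of 12 listed, 11 were tested, and with quizartinib in RPMI 9 fell and the other 2 were not called, with a median of -0.83 against 0.025 over all genes. HSPA8 (-1.83, SE 0.053, adjusted p = 7.9e-18), HSP90AA1 (-1.62, SE 0.11, adjusted p = 2.56e-11) and HSPH1 (-1.56, SE 0.050, adjusted p = 4.5e-17) were among those that fell. With quizartinib, 8 of the 11 were higher and 1 lower in hBMSC-CM, with a median of 0.43 against 0.0020 over all genes. With vehicle, 5 of the 11 were higher and 0 lower in hBMSC-CM.

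Genes with the pattern most like each of the 10 were ranked by Pearson correlation of log2 CPM over the 12 libraries, among 9288 genes. The libraries share groups and treatments, so the correlation is a description. For FOSL1 the closest were GNL3L (r = 0.998), SRM (r = 0.997) and EIF4G1 (r = 0.997), and 2320 genes had a correlation of at least 0.9. For EGR1 they were BCL11A (r = 0.993), CHD7 (r = 0.990) and TRPM2 (r = 0.989), with 1040 genes at 0.9 or above. For IER3 the closest was FLOT1 (r = 0.996), its neighbor on the same strand of chromosome 6 with 466 bases between the genes, and 1024 genes reached 0.9. FOSL2 was closest to NDUFC1 (r = 0.993), with 255 genes. FOS, IER2 and FOSB had few genes of like pattern, 2, 2 and 3 at 0.9 or above. The closest to FOS was ZFP36 (r = 0.932), an immediate early gene whose protein speeds the decay of AU-rich transcripts. The closest to IER2 was TEX2 (r = 0.921), and JUN had no gene at 0.9, with TOR4A (r = 0.891) highest. By Spearman correlation the counts at 0.9 or above were lower for FOSL1 (777), EGR1 (105), IER3 (180) and FOSL2 (119), and the closest were GAR1, ZBED4, LPCAT3 and PLPPR3. The Spearman count was also lower for FOSB (0), and it was higher for FOS (5), IER2 (4) and JUN (2). Among the 10, EGR1 correlated (Pearson) with IER3 at 0.98 and with FOSL1 at 0.91, and JUNB with JUND at 0.90. IER2 and IER3 correlated at 0.020.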

How the data were processed

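Poly-A RNA of 12 MOLM-13 libraries was sequenced in pairs. Per the study's methods, the authors trimmed reads with BBDuk, aligned them to hg38 with STAR 2.6.0a and counted reads per gene with an Ensembl annotation. The deposited values are raw counts per gene name, not normalized. The study's reporting checklist calls its replicates biological. The labels do not name the cultures, so p-values measure the spread between these libraries.

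Genes with a mean count of at least 1 and a mean of at least 1 CPM over all libraries were tested (12998 of 57353). edgeR 4.0.16 (R 4.3.3) was run with TMM factors and the quasi-likelihood test, two-sided, as a single fit of 4 group means over 12 libraries. It was also run on simulated counts in which few genes changed, and in 1 group only. That run does not test the scaling where most genes change. Adjusted p is by Benjamini-Hochberg over all tested genes. Alternatives used other scalings and filters, DESeq2 1.42.0, limma 3.58.1, a replicate block, the compared groups alone, and each library left out. An exact permutation test of 3 against 3 cannot go below p = 0.1 and was not used. Total counts were 19966546 to 31546104, and counting limits cover counting error only. Gene positions and exon lengths are from GENCODE (GRCh38), and promoters from RefSeq (GRCh38.p14). The 10 genes, the lists around them and the genes named from those lists were chosen with earlier results of these data known. Named genes were all 10 genes and, from each list, some of the 3 called genes with the largest increase and the 3 with the largest decrease among those with a mean of at least 5 CPM, so that genes with lower levels and larger changes are not named.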

Additional observations from a re-analysis of the deposited data

Results flagged for a closer look

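The effect of quizartinib differed between the media for 5 of the 10 genes, by the interaction term of the edgeR fit with Benjamini-Hochberg adjustment over all 12998 genes, and these are listed for that reason. The effect in hBMSC-CM minus that in RPMI was 2.09 on the log2 scale for FOSL1 (adjusted p = 8.1e-07), 1.20 for EGR1 (adjusted p = 0.00117) and 1.12 for IER3 (adjusted p = 1.71e-09). For these genes the fall with quizartinib on the log2 scale was smaller in hBMSC-CM. In mean CPM the fall was smaller there for FOSL1 only (8.01 to 0.775 in RPMI, 9.44 to 3.96 in hBMSC-CM). EGR1 went from 10.5 to 2.63 in RPMI and from 23.3 to 14.0 in hBMSC-CM. IER3 went from 25.15 to 6.77 in RPMI and from 67.9 to 39.9 in hBMSC-CM. For each of these genes, all 3 libraries with quizartinib in hBMSC-CM lay above all 3 in RPMI. The difference in drug effect was −0.91 for IER2 (adjusted p = 2.54e-06), which fell in hBMSC-CM and was not called in RPMI. It was 0.25 for FOS (adjusted p = 0.029), the difference that was no longer called when any of 3 single libraries was left out. Of all genes tested, 45.2% were called in this comparison.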

How the results depend on the processing

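The 10 genes gave 1370 values under the alternatives, of which 1312 kept their direction and their side of the threshold, 26 lost a call, 18 gained a call and 14 changed sign. None of the 14 was called in either setting. They concern FOS in RPMI with quizartinib (0.052 with library size only, 0.065 with upper-quartile factors, 0.012 with a filter at a mean of 5 CPM, and −0.071 to 0.0076 with single libraries left out) and JUNB in RPMI (0.0080 with library size only, 0.021 with upper-quartile factors, −0.13 to 0.0065 with single libraries left out). With single libraries left out they also concern FOSB between the media with vehicle (−0.066 to 0.15), the media difference in drug effect of FOSL2 (−0.010 to 0.081) and of JUN (−0.26 to 0.032), and JUN with quizartinib in hBMSC-CM against vehicle in RPMI (−0.034 to 0.23). The cause was not tested. With single libraries left out, 5 to 6 of the 10 genes were called with quizartinib in RPMI and 8 to 10 in hBMSC-CM. The replicate numbers do not pair the libraries: over 18 pairs with the same number, deviations from the group means correlated between −0.227 and 0.098. With the replicate block, the counts of called genes were 6 and 9 for the drug in RPMI and in hBMSC-CM, 8 and 6 for the media under quizartinib and under vehicle, and 5 for the difference in drug effect, as without it, and 7 in place of 8 for quizartinib in hBMSC-CM against vehicle in RPMI, where EGR1 lost its call (0.39, adjusted p = 0.0586). Of 40 levels per kilobase, 17 moved by more than their SD with the length of the longest transcript and 6 with library size only. The AP-1 match of FOSL2 is not counted in windows that end at the start. Depth limits FOSL1 most, with 16 to 21 counts with quizartinib in RPMI.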
